A study of Mus musculus with 12 samples.

Results

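Primary granule accessibility was examined at 3 stretches of the mouse genome, around Mpo, around the neighbours Prtn3 and Elane, and around Ctsg. A peak counted as a member when its start lay on chromosome 11 between 87580000 and 87640000 (the Mpo interval, 60 kb), on chromosome 10 between 79330000 and 79365000 (the Prtn3-Elane interval, 35 kb) or on chromosome 14 between 56690000 and 56750000 (the Ctsg interval, 60 kb), all on build mm9. The rule found 24 of the 60072 listed peaks, 11 in the Mpo interval, 6 in the Prtn3-Elane interval and 7 in the Ctsg interval. They are numbered within each interval by start position, and all 24 passed the filter on low values. The files name no genes and no annotation of mm9 was used here, so a peak was not placed in a gene, exon, intron or UTR. In the GRCm38.p6 gene table, the long non-coding RNA Gm34064 overlaps the start of Mpo and Lpo follows it, Prtn3 and Elane lie between Plppr3 and the pseudogene Gm19810, and Ctsg lies between Mcpt8 and Gzme, so that a member may belong to a neighbouring gene.

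Primary, or azurophilic, granules are the first granules that a neutrophil precursor makes, at the promyelocyte stage. Mpo encodes myeloperoxidase, which makes hypochlorous acid from hydrogen peroxide and chloride. Elane (neutrophil elastase), Prtn3 (proteinase 3) and Ctsg (cathepsin G) encode serine proteases stored in the same granules. Transcription of these genes is a mark of granulocyte-monocyte progenitors and promyelocytes and is switched off as neutrophils mature, and C/EBP, PU.1, RUNX and MYB factors are known to act on them. Open chromatin at a gene is not a measure of its RNA.

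The data were 12 ATAC-seq libraries of cultured mouse myeloid cells, an assay whose transposase inserts adapters where DNA is accessible. The 4 groups of 3 libraries were HMGN1-OE at 0 h, wild-type at 0 h, HMGN1-OE at 96 h and wild-type at 96 h. HMGN1-OE cells came from transgenic mice that overexpress human HMGN1, a protein that binds nucleosomes, and wild-type cells from mice without the transgene. Bone marrow progenitors of both genotypes had been immortalized with a retrovirus carrying a fusion of the estrogen receptor and HoxB8, and all cultures grew with interleukin 3. At 0 h the medium still held estradiol, which keeps the fusion active and the cells immature, and at 96 h it had been withdrawn for that time, so that the cells could mature. The study calls the replicates biologically independent. The number of immortalized lines per genotype is not given in the sources used here, so genotype and source of cells cannot be told apart.

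The promoters of the 4 genes are shown because motif cores of factors known to act on them could be read there. Each sequence is the 250 bases before the RefSeq start site (GRCm38.p6), 5′ to 3′ on the strand of the gene, with matches to any of the 4 cores in capitals. The positions are chr11:87793534-87793783 (Mpo, plus strand), chr10:79879417-79879666 (Prtn3, plus strand), chr10:79886062-79886311 (Elane, plus strand) and chr14:56102575-56102824 (Ctsg, minus strand). They are on another build than the peaks, so overlap with a member peak was not determined.
Mpo: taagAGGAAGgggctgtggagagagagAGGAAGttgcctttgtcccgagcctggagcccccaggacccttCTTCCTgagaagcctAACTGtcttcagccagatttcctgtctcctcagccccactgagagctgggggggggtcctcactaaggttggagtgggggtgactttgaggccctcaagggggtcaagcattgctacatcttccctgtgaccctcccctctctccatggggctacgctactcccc
Prtn3: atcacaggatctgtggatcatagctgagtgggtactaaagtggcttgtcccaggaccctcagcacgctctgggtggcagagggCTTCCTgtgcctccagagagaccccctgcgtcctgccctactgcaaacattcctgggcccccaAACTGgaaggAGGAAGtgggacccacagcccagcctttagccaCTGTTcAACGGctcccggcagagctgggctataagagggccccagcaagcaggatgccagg
Elane: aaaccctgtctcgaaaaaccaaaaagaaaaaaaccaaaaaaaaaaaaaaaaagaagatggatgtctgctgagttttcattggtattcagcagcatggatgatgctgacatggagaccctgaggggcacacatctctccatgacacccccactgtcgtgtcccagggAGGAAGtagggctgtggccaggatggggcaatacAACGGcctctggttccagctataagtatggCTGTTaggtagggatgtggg
Ctsg: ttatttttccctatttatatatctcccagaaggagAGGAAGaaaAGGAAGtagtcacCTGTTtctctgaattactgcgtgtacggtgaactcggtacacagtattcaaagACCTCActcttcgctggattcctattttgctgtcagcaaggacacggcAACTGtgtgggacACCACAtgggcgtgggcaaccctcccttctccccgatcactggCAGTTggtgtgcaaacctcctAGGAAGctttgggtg

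The PU.1 core AGGAAG, searched on both strands like the others, was found 3 times in the Mpo promoter, 2 times in that of Prtn3, 1 time in that of Elane and 3 times in that of Ctsg. It was present in 29.5% of all 32851 promoter windows of the same length. The MYB core AACNG was found in all 4 promoters too, and in 74.2% of all windows. TGNGGT, a loose form of the RUNX core with any base as N, was found 2 times in the Ctsg promoter and in none of the other 3. Both matches, ACCTCA and ACCACA, were on the opposite strand, and the pattern was present in 40.1% of all windows. The C/EBP core TTGCNNAA was found in none of the 4 (9.56% of all windows). No match of one core overlapped a match of another. A match describes letters in this window and says nothing on binding.

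The deposited values were reads per kilobase of peak per 1000000 reads (RPKM), from which whole reads could be recovered. The smallest library had 21581528 and the largest 35560463 reads, and the listed peaks held 24.7% to 50.02% of a library. In replicate 1 of the wild-type 96 h group they held 50.02%, compared with 39.7% and 35.1% in the other replicates. In the HMGN1-OE libraries at 96 h they held 29.5%, 28.5% and 24.7%, less than in any library of the other groups. Levels are given below as scaled RPKM, that is, RPKM corrected with trimmed mean of M values (TMM) factors, which assume that most peaks do not change. Fold changes are differences of log2(scaled RPKM + 1), which understate the change of low peaks. A peak was called higher or lower at an adjusted p under 0.05 from limma over all 57552 tested peaks. By such calls most tested peaks changed over time (31.3% higher and 28.9% lower in HMGN1-OE, 34.2% and 29.5% in wild-type cells). The TMM assumption was thus not met over time. On the RPKM as deposited, the median log2 fold change of all peaks moved to 0.21 for genotype at 0 h, -0.48 for genotype at 96 h, -0.53 for time in HMGN1-OE and 0.21 for time in wild-type cells, and how many member calls this left is given with each comparison. The 5 comparisons share libraries and are not independent of each other.

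To see how open each interval was as a whole, the reads of its member peaks were summed per library and expressed as reads per 1000000 TMM-effective reads (RPM). The Mpo interval held 15.9, 15.1 and 12.5 RPM in HMGN1-OE libraries at 0 h, against 50.9, 47.7 and 43.8 in wild-type libraries at 0 h. At 96 h it held 77.1, 70.3 and 73.7 RPM in HMGN1-OE, against 81.3, 90.3 and 86.5 in wild-type libraries. HMGN1-OE libraries thus lay below all wild-type libraries at both times, by -1.72 on the log2 scale at 0 h and by -0.22 at 96 h, and the 96 h libraries of each genotype lay above its 0 h libraries (log2 difference 2.35 in HMGN1-OE and 0.86 in wild-type cells). Each of these 4 comparisons reached an exact two-sided permutation p of 0.1, below which groups of 3 cannot go (0.12 after adjustment over 12 tests). As deposited, the 4 differences kept their sign, but the genotype difference at 96 h was -0.84. From the highest member peak alone it was 0.07, with its sign turned.

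The protease intervals differed less between groups. The Prtn3-Elane interval held 61.0, 59.3 and 61.0 RPM in HMGN1-OE libraries at 0 h, against 78.5, 79.2 and 68.2 in wild-type libraries at 0 h. At 96 h the order of the genotypes was turned round, with 77.1, 78.4 and 77.9 RPM in HMGN1-OE and 57.7, 62.9 and 60.9 in wild-type libraries. The log2 difference was -0.31 at 0 h and 0.36 at 96 h between the genotypes, 0.36 over time in HMGN1-OE and -0.31 over time in wild-type cells. None of these 4 pairs of groups overlapped, and each had an exact permutation p of 0.1 (adjusted, 0.12). On the RPKM as deposited, the genotype difference at 96 h was -0.25 and the time difference in HMGN1-OE was -0.26, both with the opposite sign.

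On TMM-effective reads, the Ctsg interval was the steadiest. It held 46.6 ± 1.3 RPM in HMGN1-OE and 48.3 ± 1.8 in wild-type libraries at 0 h (SD, n = 3 each). At 96 h it held 55.1 ± 1.8 in HMGN1-OE and 51.6 ± 2.2 in wild-type libraries (SD, n = 3 each). The genotypes overlapped at 0 h, with a log2 difference of -0.05 (exact permutation p = 0.2, adjusted 0.2). At 96 h the HMGN1-OE libraries lay above the wild-type libraries by 0.10, and over time the HMGN1-OE libraries differed by 0.24 (exact permutation p = 0.1 for each, adjusted 0.12). The wild-type libraries of the 2 times overlapped (log2 difference 0.10, exact permutation p = 0.2). As deposited, the genotype differences were 0.19 at 0 h and -0.52 at 96 h and the time difference in HMGN1-OE was -0.38, each with its sign turned. The time difference in wild-type cells was 0.33. The Prtn3-Elane differences as deposited were smaller in size, with -0.078 and -0.25 for genotype (0 h, 96 h) and -0.26 and -0.083 for time (HMGN1-OE, wild-type).

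**Figure D1:**
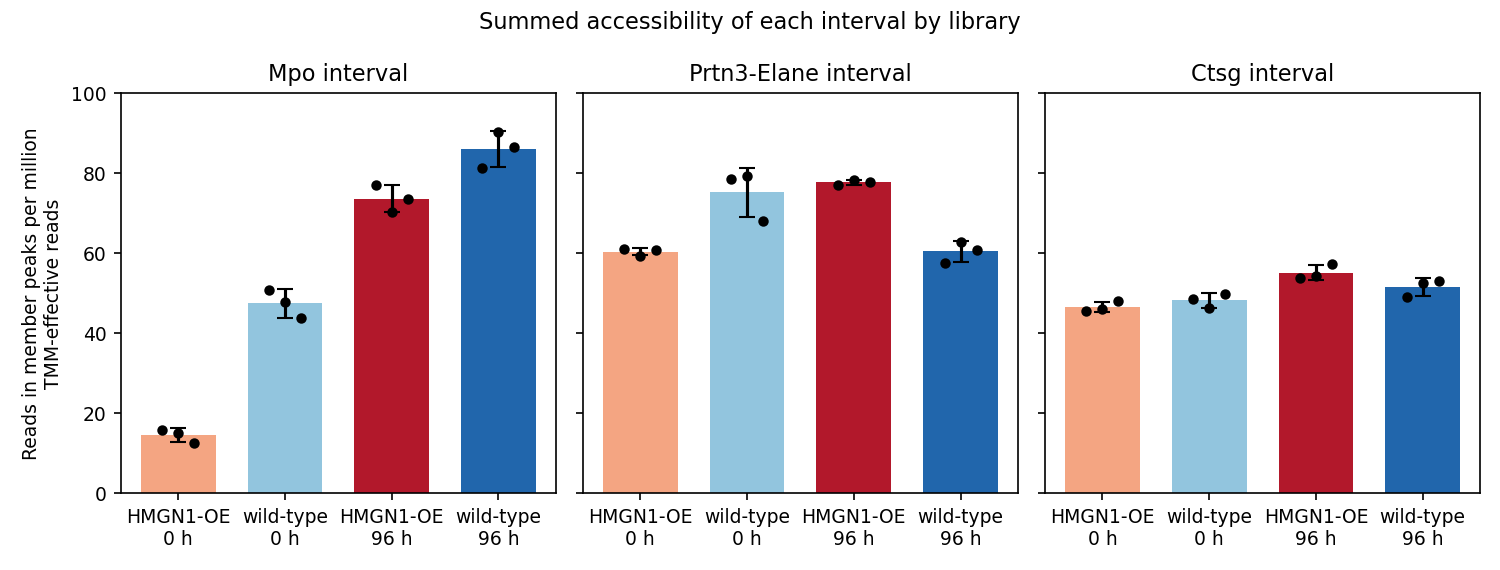
Reads in all member peaks of an interval per 1000000 TMM-effective reads (vertical axis), by group (horizontal axis); bars are means, error bars SD (n = 3) and points single libraries. The Mpo interval has its lowest mean, 14.5, in HMGN1-OE at 0 h and its highest, 86.1, in wild-type at 96 h, whereas the Ctsg interval stays between 46.6 and 55.1.

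Undifferentiated cells were compared first. At 0 h, 11 of the 24 member peaks were lower and 1 was higher in HMGN1-OE relative to wild-type, and 12 were not called. Over all tested peaks, 11.4% were lower and 10.8% higher. The median log2 fold change was -0.21 over the members and 0.03 over all tested peaks. The lower peaks were 8 of the 11 in the Mpo interval and 3 of the 6 in the Prtn3-Elane interval, and the higher peak lay in the Ctsg interval. As deposited, 8 members were lower and 1 was higher, while the calls of Mpo peak 6 and Prtn3-Elane peaks 1 and 2 were lost. Of all 57424 peaks tested with that scaling, 1504 were lower and 8229 higher. The call of Mpo peak 6 (limma adjusted p = 0.0369) was also lost without either of 2 HMGN1-OE libraries or any of the 3 wild-type libraries at 0 h.

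Mpo peak 3 (chr11:87591955-87593228, 1274 bp) showed the widest gap between the genotypes among the members. It had 0.561, 0.45 and 0.413 scaled RPKM in HMGN1-OE libraries at 0 h, against 8.24, 7.51 and 7.20 in wild-type libraries, a log2 fold change of -2.55 (SE 0.16, limma adjusted p = 1.62e-09). At 96 h it had 2.35, 2.15 and 1.99 scaled RPKM in HMGN1-OE, against 8.03, 7.55 and 8.27 in wild-type libraries (log2 fold change -1.5 with SE 0.16, limma adjusted p = 2.36e-06). The peak was thus almost closed in HMGN1-OE cells at 0 h and remained below every wild-type library at both times. Over time it rose in HMGN1-OE cells (log2 fold change 1.10, limma adjusted p = 5.45e-06), while in wild-type cells the times overlapped (0.05, limma adjusted p = 0.794).

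Mpo peak 4 (chr11:87603427-87604091, 665 bp) had the highest mean level of the Mpo interval and showed a gap at 0 h only. Its levels were 3.76, 2.75 and 1.81 scaled RPKM in HMGN1-OE libraries at 0 h, against 8.31, 8.01 and 7.06 in wild-type libraries (log2 fold change -1.25 with SE 0.14, limma adjusted p = 3.86e-06). By 96 h they were 25.9, 22.8 and 22.6 scaled RPKM in HMGN1-OE, against 22.8, 22.3 and 22.6 in wild-type libraries, which overlapped (0.07, SE 0.14, limma adjusted p = 0.773). The rise over time was 2.74 in HMGN1-OE and 1.43 in wild-type cells on the log2 scale, and the difference between these rises passed the test (1.32, SE 0.20, limma adjusted p = 0.000258). As deposited that difference was 0.56, with an adjusted p of 0.0845 from limma, and the peak was called lower in HMGN1-OE at 96 h.

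Mpo peak 5 (chr11:87606856-87607687, 832 bp) had 3.63, 3.06 and 2.23 scaled RPKM in HMGN1-OE libraries at 0 h, against 15.5, 14.7 and 9.42 in wild-type libraries (log2 fold change -1.82 with SE 0.16, limma adjusted p = 1.42e-07). At 96 h all HMGN1-OE libraries, with 20.1, 18.6 and 20.2 scaled RPKM, lay above the wild-type libraries, with 12.4, 16.1 and 15.1, but the fold change of 0.42 did not pass the test (SE 0.16, limma adjusted p = 0.0638). With pseudocount 5, with limma-voom, in a fit of only these groups, or without wild-type replicate 3 at 0 h, the peak was called higher in HMGN1-OE at 96 h. The rise in HMGN1-OE cells was 2.39 (limma adjusted p = 1.81e-10), whereas the wild-type libraries of both times overlapped (0.15, limma adjusted p = 0.423). The difference of the time courses, 2.24 (SE 0.22, limma adjusted p = 8.34e-06), was called under all 4 scalings tried.

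Mpo peak 7 (chr11:87618053-87619241, 1189 bp) opened in both genotypes. Levels at 0 h were 1.20, 1.39 and 1.12 scaled RPKM in HMGN1-OE libraries, against 3.03, 3.28 and 3.22 in wild-type libraries (log2 fold change -0.90 with SE 0.14, limma adjusted p = 0.000118). Levels at 96 h were 13.7, 11.2 and 11.97 scaled RPKM in HMGN1-OE, against 12.8, 16.5 and 14.2 in wild-type libraries, with an overlap (-0.22, SE 0.14, limma adjusted p = 0.275). The time change was 2.57 in HMGN1-OE and 1.89 in wild-type cells. The difference between them, 0.68 (SE 0.20, limma adjusted p = 0.0217), was lost without HMGN1-OE replicate 1 at 96 h (adjusted p = 0.0624 from limma) or wild-type replicate 1 at 96 h (0.0619), and was -0.02 on the RPKM as deposited, where the peak was called lower in HMGN1-OE at 96 h. It was also lost with pseudocount 5 (0.22, adjusted p = 0.222 from limma).

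Mpo peak 9 (chr11:87621813-87622338, 526 bp) was already open in wild-type cells at 0 h. It had 4.63, 7.69 and 4.35 scaled RPKM in HMGN1-OE libraries, against 12.3, 9.61 and 11.96 in wild-type libraries (log2 fold change -0.94 with SE 0.14, limma adjusted p = 0.00011). The libraries at 96 h had 13.8, 14.5 and 14.1 scaled RPKM in HMGN1-OE and 18.5, 18.7 and 17.6 in wild-type cells, without overlap but with a fold change of -0.35 that did not pass the test (limma adjusted p = 0.0871). On the RPKM as deposited, with pseudocount 5, with limma-voom, in a fit of only the groups compared, or without HMGN1-OE replicate 2 at 0 h, the peak was called lower in HMGN1-OE at 96 h. Over time the peak rose by 1.24 in HMGN1-OE (limma adjusted p = 3.57e-07) and by 0.65 in wild-type cells (limma adjusted p = 0.000499). The difference between these rises did not pass the test (0.59, SE 0.20, limma adjusted p = 0.0511), but was called in 5 of 21 alternative settings.

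The other 6 members of the Mpo interval had group means between 0.39 and 14.7 scaled RPKM. Peak 8 (chr11:87619783-87620835), next to peak 7, also opened in both genotypes, with means of 0.976 ± 0.088 in HMGN1-OE and 4.91 ± 0.15 in wild-type libraries at 0 h and 11.3 ± 0.5 and 14.7 ± 1.9 at 96 h in the same order (SD, n = 3 each). Peak 2 (chr11:87587992-87588402) went the other way over time and had 2.09 ± 0.46 in HMGN1-OE and 8.17 ± 0.91 in wild-type libraries at 0 h, and 1.46 ± 0.55 and 3.05 ± 0.85 at 96 h (SD, n = 3 each). Its time change was -0.34 in HMGN1-OE (limma adjusted p = 0.165) and -1.20 in wild-type cells (limma adjusted p = 4.92e-05). Peaks 6 and 11 were called in both time courses, peak 6 higher and peak 11 lower, and peak 10 in none of the 5 comparisons. Peak 1 was called only over time in HMGN1-OE cells, where the log2 fold change was 0.54 (limma adjusted p = 0.0147), a call lost as deposited or without HMGN1-OE replicate 2 at 0 h. In wild-type cells its time change was 0.37 (limma adjusted p = 0.0801), called higher as deposited, scaled to reads in peaks or without wild-type replicate 3 at 96 h. The difference of its time courses was 0.17 (limma adjusted p = 0.707). In wild-type cells at 96 h its level was 8.52 in replicate 1, against 4.79 and 4.22 in the others.

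**Figure D2:**
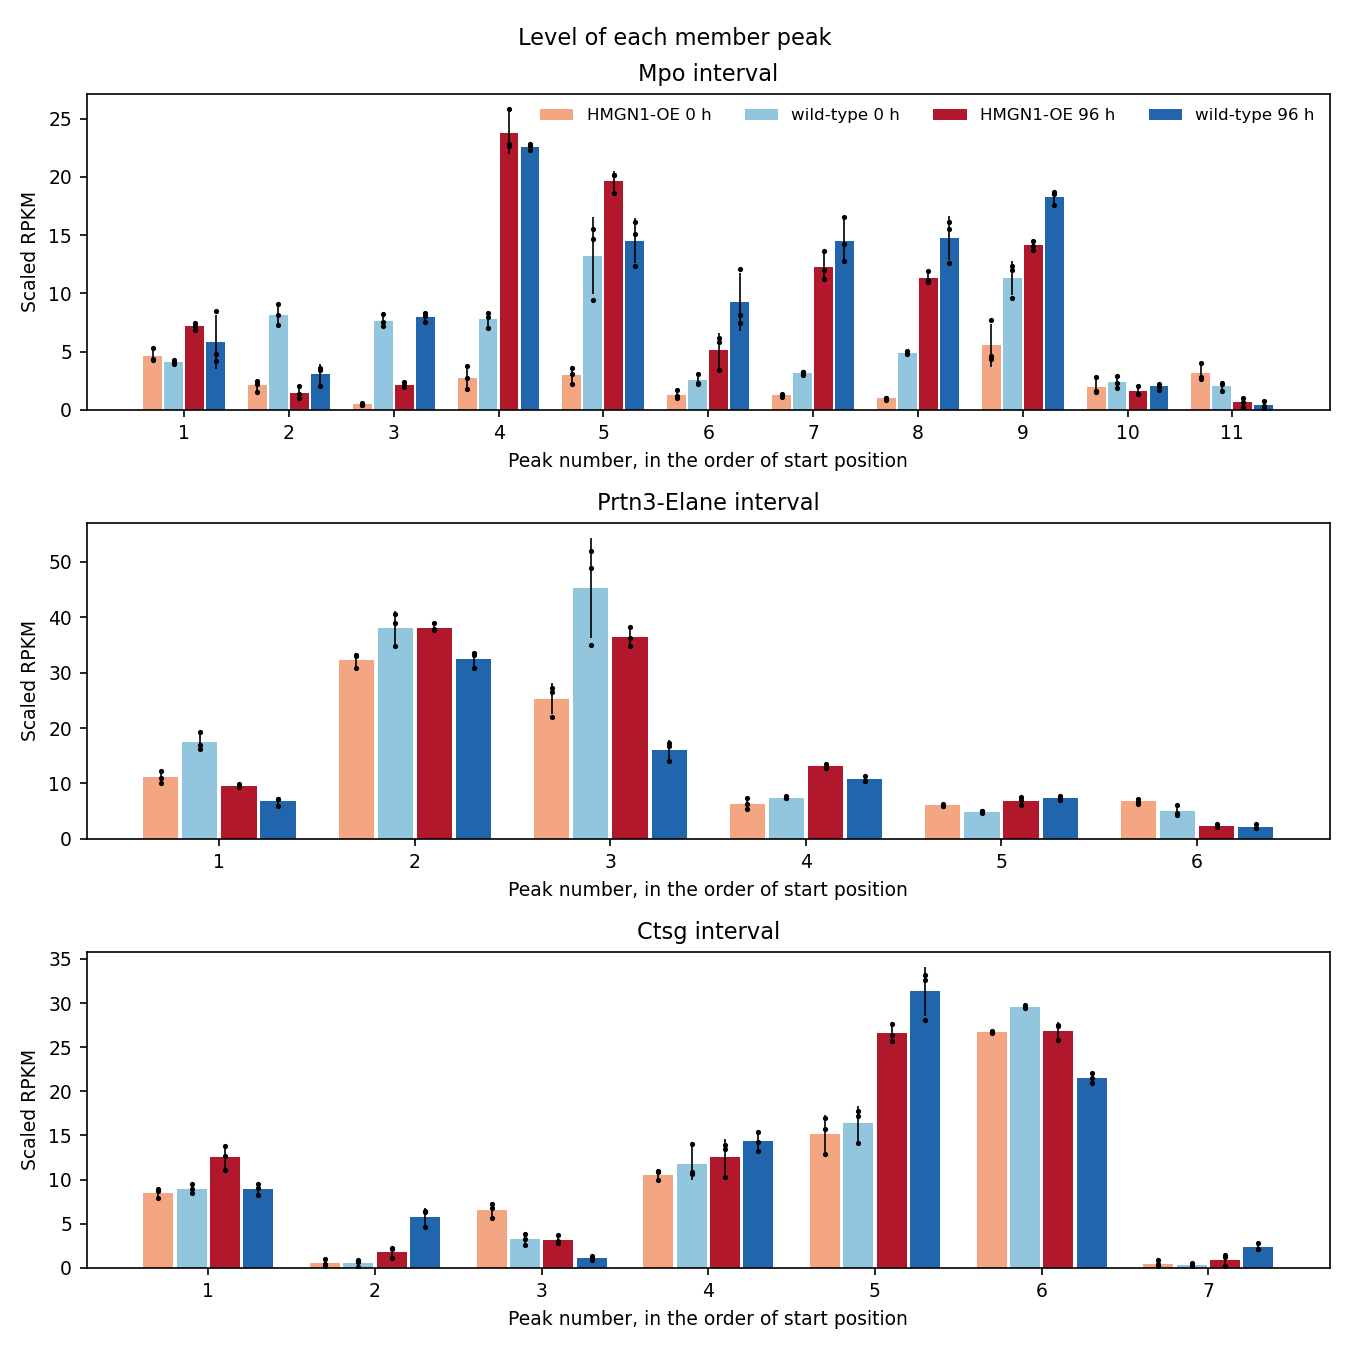
Scaled RPKM (vertical axis) of each member peak by peak number (horizontal axis) in the 3 intervals; bars are group means, error bars SD (n = 3) and points single libraries. Mpo peaks 3 to 9 are lowest in HMGN1-OE at 0 h, and Prtn3-Elane peak 3 is highest in wild-type at 0 h and lowest in wild-type at 96 h.

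In the Prtn3-Elane interval, the peaks on the side of the lower positions carried most of the reads. Peak 2 (chr10:79340009-79341091, 1083 bp), the highest, had 33.1, 30.9 and 32.9 scaled RPKM in HMGN1-OE libraries at 0 h, against 39.0, 40.6 and 34.9 in wild-type libraries. At 96 h the values were 37.9, 38.9 and 37.6 scaled RPKM in HMGN1-OE, against 30.8, 33.5 and 33.1 in wild-type libraries. The genotypes did not overlap at either time, and the fold changes were small and of opposite sign (log2 fold change -0.23, limma adjusted p = 0.0233 at 0 h, and 0.23, limma adjusted p = 0.0254 at 96 h; SE 0.07 each). Both calls hung on single libraries. The first was lost without HMGN1-OE replicate 2 (adjusted p = 0.101 from limma) or wild-type replicate 1 or 2 at 0 h (0.0832 and 0.122), and the second without HMGN1-OE replicate 1 or 2 (0.0577 and 0.0791) or wild-type replicate 1 at 96 h (0.177). Scaled to reads in peaks, the first call was lost too (-0.14, adjusted p = 0.0776 from limma). With median-ratio scaling, the second was lost (0.21, adjusted p = 0.0594 from limma). As deposited, the fold change of peak 2 was 0.00 at 0 h and -0.37 at 96 h, where it was called lower.

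Prtn3-Elane peak 3 (chr10:79343433-79343798, 366 bp) showed the same turn in a larger size. It had 27.3, 26.5 and 22.1 scaled RPKM in HMGN1-OE libraries at 0 h, against 52.0, 48.8 and 34.9 in wild-type libraries (log2 fold change -0.80 with SE 0.12, limma adjusted p = 7.52e-05). At 96 h it had 34.7, 36.3 and 38.2 scaled RPKM in HMGN1-OE, against 14.1, 16.8 and 17.2 in wild-type libraries (log2 fold change 1.14 with SE 0.12, limma adjusted p = 2.1e-06). HMGN1-OE libraries were thus all lower at 0 h and all higher at 96 h. The peak rose in HMGN1-OE cells (0.52, limma adjusted p = 0.000863) and fell in wild-type cells (-1.42, limma adjusted p = 4.02e-09), a difference of 1.94 (SE 0.17, limma adjusted p = 2.05e-06). Both genotype calls, the wild-type fall and the difference of the time courses held under all 4 scalings, but the rise in HMGN1-OE cells was -0.09 as deposited (limma adjusted p = 0.616).

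Prtn3-Elane peak 1 (chr10:79337175-79337350, 176 bp) had 10.2, 12.2 and 10.9 scaled RPKM in HMGN1-OE libraries at 0 h, against 19.3, 17.0 and 16.2 in wild-type libraries (log2 fold change -0.61 with SE 0.11, limma adjusted p = 0.000408). At 96 h it had 9.32, 9.49 and 9.82 scaled RPKM in HMGN1-OE, against 7.26, 7.14 and 6.01 in wild-type libraries (0.44, SE 0.11, limma adjusted p = 0.0063). This peak was not called over time in HMGN1-OE cells (-0.19, limma adjusted p = 0.126) and fell in wild-type cells (-1.24, limma adjusted p = 7.15e-09). As deposited, the fold change between the genotypes was -0.39 at 0 h (limma adjusted p = 0.148) and -0.11 at 96 h (0.644). With limma-voom, the fold change at 96 h was 0.46 and not called (adjusted p = 0.188).

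Prtn3-Elane peak 6 (chr10:79363674-79364168, 495 bp) closed in both genotypes. It had 2.18, 2.33 and 2.68 scaled RPKM in HMGN1-OE libraries at 96 h, against 7.16, 6.72 and 6.38 at 0 h (log2 fold change -1.19, SE 0.17, limma adjusted p = 5.51e-06). In wild-type libraries it had 1.87, 2.62 and 1.94 scaled RPKM at 96 h, against 4.63, 4.25 and 6.19 at 0 h (-0.93, SE 0.17, limma adjusted p = 8.06e-05). All 96 h libraries of a genotype lay below all of its 0 h libraries. The genotypes were not called different at either time. The remaining members opened: peak 4 rose in both genotypes (0.97 in HMGN1-OE and 0.47 in wild-type cells) and peak 5 in wild-type cells (0.51, limma adjusted p = 0.00142), with 0.16 in HMGN1-OE cells (limma adjusted p = 0.267). The rise of peak 4 in HMGN1-OE cells was not called as deposited.

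In the Ctsg interval, peaks 5 and 6 held most of the reads. Peak 6 (chr14:56723970-56724891, 922 bp) had 26.8, 26.6 and 26.7 scaled RPKM in HMGN1-OE libraries at 0 h, against 29.6, 29.8 and 29.4 in wild-type libraries, without overlap but not called (log2 fold change -0.14, SE 0.07, limma adjusted p = 0.139). At 96 h it had 25.8, 27.4 and 27.5 scaled RPKM in HMGN1-OE, against 21.5, 21.0 and 22.1 in wild-type libraries (0.31, SE 0.07, limma adjusted p = 0.00261). The fold change over time in HMGN1-OE cells was 0.01 (limma adjusted p = 0.922), while it fell in wild-type cells (-0.44, limma adjusted p = 1e-05). The difference of the time courses was 0.45 (SE 0.09, limma adjusted p = 0.00321), but -0.37 with an adjusted p of 0.151 from limma as deposited, where the difference at 96 h was -0.28. The wild-type fall was not called as deposited either (-0.22, adjusted p = 0.229 from limma).

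Ctsg peak 5 (chr14:56720942-56721584, 643 bp) rose in both genotypes. Its levels in HMGN1-OE libraries were 25.7, 27.7 and 26.3 scaled RPKM at 96 h, against 12.9, 15.8 and 16.9 at 0 h (log2 fold change 0.77, SE 0.10, limma adjusted p = 2.16e-06). In wild-type libraries they were 28.1, 32.7 and 33.2 at 96 h, against 17.2, 14.1 and 17.7 at 0 h (0.90, SE 0.10, limma adjusted p = 2.77e-07). The times did not overlap in either genotype. The rise in HMGN1-OE cells was 0.18 as deposited (limma adjusted p = 0.331). Ctsg peak 4 (chr14:56717851-56718075, 225 bp) was called in no comparison, with means of 10.6 ± 0.6 in HMGN1-OE and 11.8 ± 1.9 in wild-type libraries at 0 h and 12.6 ± 2.0 and 14.3 ± 1.1 at 96 h (SD, n = 3 each).

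Ctsg peak 3 (chr14:56712078-56712741, 664 bp) was the member called higher in HMGN1-OE cells at both times. It had 6.80, 5.61 and 7.27 scaled RPKM in HMGN1-OE libraries at 0 h, against 3.84, 2.61 and 3.31 in wild-type libraries (log2 fold change 0.83 with SE 0.18, limma adjusted p = 0.00225). At 96 h it had 2.83, 3.06 and 3.69 scaled RPKM in HMGN1-OE, against 1.36, 1.12 and 0.942 in wild-type libraries (0.97, SE 0.18, limma adjusted p = 0.000723). It fell over time in both genotypes, by 0.85 in HMGN1-OE and 0.98 in wild-type cells on the log2 scale, and the difference between the falls did not pass the test (0.13, SE 0.25, limma adjusted p = 0.769). As deposited, the difference at 96 h was 0.54 (limma adjusted p = 0.0531).

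Ctsg peak 2 (chr14:56710194-56710443, 250 bp) was nearly closed at 0 h, and its lowest library held 1 read. It had 0.39, 1.002 and 0.248 scaled RPKM in HMGN1-OE and 0.654, 0.136 and 0.868 in wild-type libraries at 0 h. By 96 h it had 2.24, 1.11 and 2.09 scaled RPKM in HMGN1-OE, against 6.42, 6.28 and 4.62 in wild-type libraries (log2 fold change -1.28 with SE 0.25, limma adjusted p = 0.00116). It opened in both genotypes, by 0.87 in HMGN1-OE and 2.15 in wild-type cells, but the first was not called as deposited (0.56, limma adjusted p = 0.0669). The difference of the time courses was -1.27 (SE 0.35, limma adjusted p = 0.0182) and was lost without HMGN1-OE replicate 2 at 0 h, HMGN1-OE replicate 2 at 96 h or wild-type replicate 2 at 0 h (adjusted p 0.0531, 0.0543 and 0.0562 from limma), with pseudocount 0.1 (0.152) and with limma-voom (0.213). Of the remaining members, peak 1 was higher in HMGN1-OE at 96 h, with 12.5 ± 1.4 against 8.91 ± 0.61 scaled RPKM in wild-type libraries (SD, n = 3 each; log2 fold change 0.45, limma adjusted p = 0.00589), and peak 7 was lower, with 0.943 ± 0.626 against 2.34 ± 0.37 (-0.84, limma adjusted p = 0.0249). The call of peak 1 was lost as deposited, and that of peak 7 with pseudocount 0.1 or without HMGN1-OE replicate 2 or wild-type replicate 2 at 96 h.

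At 96 h, 6 of the 24 members were higher and 5 lower in HMGN1-OE relative to wild-type, and 13 were not called. Among all tested peaks, 11.0% were higher and 11.2% lower. The members' median log2 fold change was -0.01, against 0.02 over all tested peaks. The higher members were 3 of the 6 in the Prtn3-Elane interval and 3 of the 7 in the Ctsg interval, and the lower ones 3 of the 11 in the Mpo interval and 2 in the Ctsg interval. The 5 lower members were called under all 4 scalings, but on the RPKM as deposited 14 members were lower and 1, Prtn3-Elane peak 3, was higher. With that scaling, 27035 of all 57424 tested peaks were lower and 1131 higher, so its member counts do not compare with the shares above. Without wild-type replicate 1 at 96 h, the library that stood apart, the counts were again 6 higher and 5 lower, with Mpo peak 1 now called higher, Mpo peak 8 lower and Prtn3-Elane peak 2 and Mpo peak 6 no longer called. Without HMGN1-OE replicate 2 at 96 h, 3 members were lower, since Mpo peak 6 and Ctsg peak 7 lost their calls, and likewise 3 without wild-type replicate 2 at 96 h, where Mpo peak 2 and Ctsg peak 7 lost theirs.

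**Figure D3:**
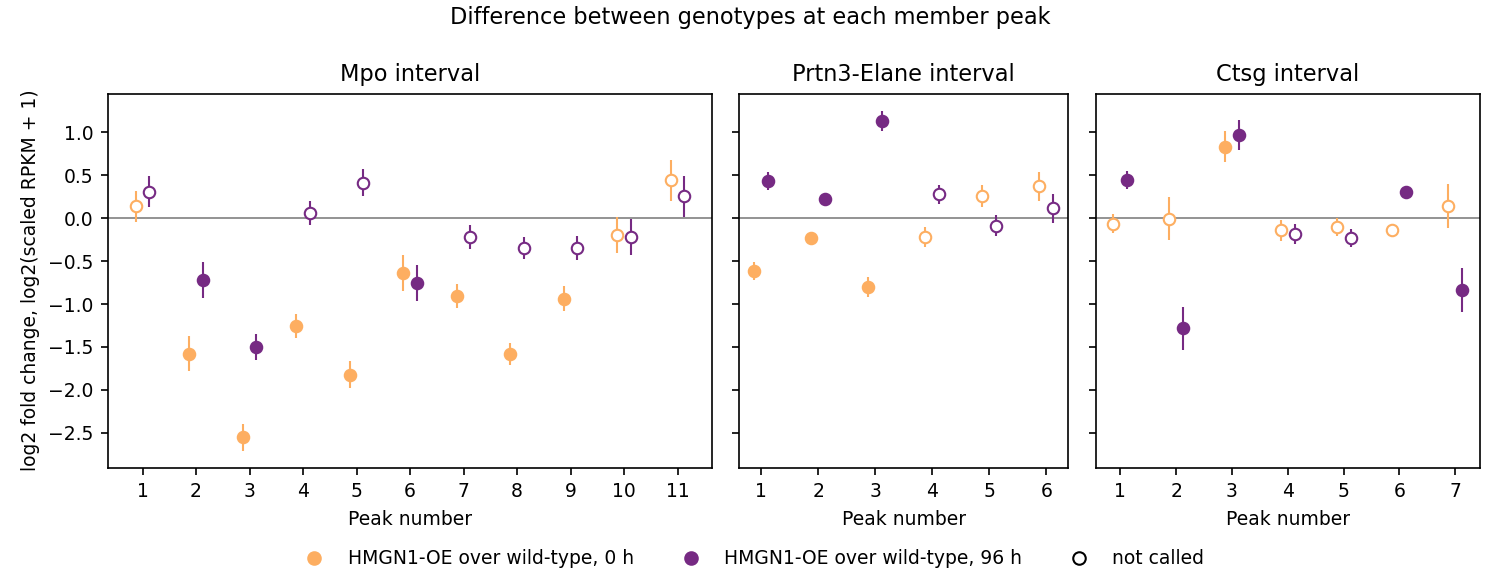
Log2 fold change of HMGN1-OE over wild-type on the log2(scaled RPKM + 1) scale (vertical axis) at each member peak (horizontal axis, by number) at 0 h and 96 h; error bars are SE from limma, and open circles mark peaks that were not called. At 0 h the points of Mpo peaks 2 to 9 lie below 0, with the lowest, peak 3, at -2.55, and at 96 h Prtn3-Elane peak 3 lies highest at 1.14.

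After estradiol withdrawal, 14 of the 24 members were higher and 3 lower at 96 h than at 0 h in HMGN1-OE cells, and 7 were not called. For all tested peaks the shares were 31.3% higher and 28.9% lower, and the median log2 fold change was 0.51 over the members and -0.03 over all. The higher members were 8 in the Mpo interval, 3 in the Prtn3-Elane interval and 3 in the Ctsg interval, and each interval had 1 lower member (Mpo peak 11, Prtn3-Elane peak 6 and Ctsg peak 3). As deposited, 7 members were higher, all of them in the Mpo interval (peaks 3 to 9), and 8 were lower. Of all 57424 peaks tested with that scaling, 10548 were higher and 30100 lower.

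In wild-type cells, 10 of the 24 members were higher and 8 lower at 96 h than at 0 h, and 6 were not called. Over all tested peaks, 34.2% were higher and 29.5% lower. The members' median log2 fold change was 0.21, against 0.02 over all tested peaks. In the Mpo interval 5 members were higher and 2 lower, in the Ctsg interval 3 were higher and 2 lower, and in the Prtn3-Elane interval 2 were higher and 4 lower. All 10 higher and 6 of the 8 lower calls held under the 4 scalings, the exceptions being Prtn3-Elane peak 2 and Ctsg peak 6. Without wild-type replicate 1 at 96 h, 10 members were again higher and 8 lower.

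**Figure D4:**
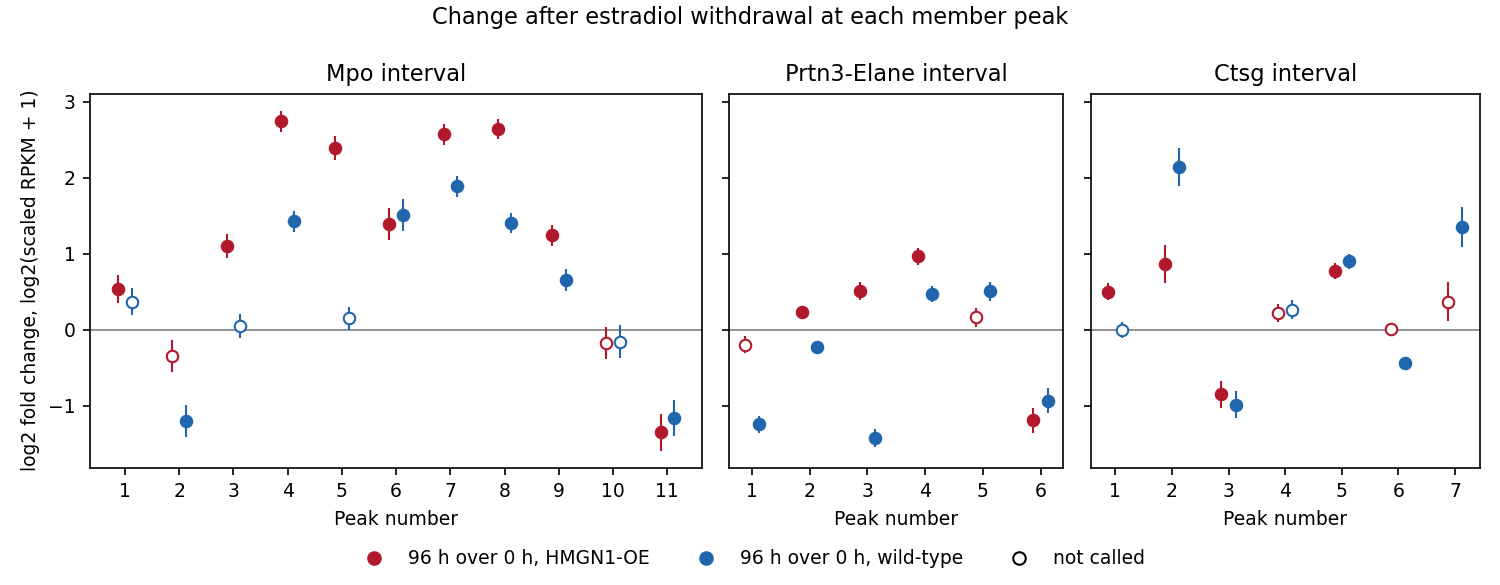
Log2 fold change of 96 h over 0 h on the log2(scaled RPKM + 1) scale (vertical axis) at each member peak (horizontal axis, by number) in HMGN1-OE and wild-type cells; error bars are SE from limma, and open circles mark peaks that were not called. Mpo peak 4 reaches 2.74 in HMGN1-OE and 1.43 in wild-type cells, and Prtn3-Elane peaks 2 and 3 lie above 0 in HMGN1-OE and below 0 in wild-type cells.

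Whether the genotypes changed by different amounts was tested directly, as the change over time in HMGN1-OE minus that in wild-type cells. This difference was positive and called at 11 members, negative and called at 1, Ctsg peak 2, and not called at 12. In all tested peaks it was called positive at 9.23% and negative at 7.45%, and its median was 0.45 over the members and -0.04 over all. The positive members were Mpo peaks 3, 4, 5, 7 and 8, Prtn3-Elane peaks 1 to 4 and Ctsg peaks 1 and 6. As deposited, it was called positive at 2 members, Mpo peak 5 and Prtn3-Elane peak 3, and negative at 6, while the median of all peaks moved to -0.69. With that scaling it was called positive at 473 and negative at 26549 of all 57424 tested peaks. Without wild-type replicate 1 at 96 h it was called positive at 8 members and negative at 1.

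How the reads of an interval were divided among its peaks does not depend on the scaling of the libraries. Mpo peak 3 held 4.2% ± 0.4 of the reads of its interval in HMGN1-OE and 20.5% ± 0.5 in wild-type libraries at 0 h, and 3.7% ± 0.3 and 11.8% ± 1.0 at 96 h in the same order (SD, n = 3 each). Prtn3-Elane peak 3 held 15.3% ± 1.8 in HMGN1-OE and 21.8% ± 2.8 in wild-type libraries at 0 h, and 17.1% ± 0.8 and 9.7% ± 0.7 at 96 h. Prtn3-Elane peak 2, by contrast, held between 53.1% and 58.0% in every group. In the Ctsg interval at 96 h, peak 5 held 31.0% ± 1.6 of the reads in HMGN1-OE and 39.0% ± 1.9 in wild-type libraries, and peak 6 held 45.0% ± 1.3 in HMGN1-OE and 38.5% ± 1.8 in wild-type libraries. These shares are descriptions and were not tested.

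Peaks outside the intervals whose start lay within 50 kb of an edge were counted for context. Around the Mpo interval there were 10, of which 2 were lower and 0 higher in HMGN1-OE at 0 h (limma; median log2 fold change -0.04), against 8 lower of 11 inside it (median -0.94). At 96 h, 5 of the 10 were lower and 0 higher in HMGN1-OE (median -0.30), against 3 lower of 11 inside it (median -0.22). Over time, 8 of these 10 rose in HMGN1-OE and 7 in wild-type cells, against 8 and 5 of the 11 inside the interval. For all tested peaks, 31.3% rose in HMGN1-OE and 34.2% in wild-type cells. In HMGN1-OE relative to wild-type, 11.4% of all were lower at 0 h and 11.2% at 96 h. Around the Prtn3-Elane interval there were 13, of which 2 were lower at 0 h and 3 lower at 96 h in HMGN1-OE relative to wild-type, and 0 higher at either time. The Ctsg interval had 1 such peak, which was called higher at 96 h than at 0 h in both genotypes and in neither comparison of the genotypes. No test compared inside with outside.

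For the highest member of each interval, the 2 peaks elsewhere with the most similar levels over the 12 libraries were found by Pearson r of log2(scaled RPKM + 1). Mpo peak 4 was closest to peaks at chr13:16021613-16022205 (r = 0.996) and chr15:74942296-74942816 (r = 0.994), the first of which had means of 3.73 in HMGN1-OE and 9.36 in wild-type libraries at 0 h and 22.8 and 22.0 at 96 h. For Prtn3-Elane peak 2 they lay at chr11:110503660-110504269 (r = 0.976) and chr7:96486778-96487719 (r = 0.974), and for Ctsg peak 6 at chr9:69571043-69571489 and chr1:175438952-175439450 (r = 0.976 each). The 12 points fall into the same 4 groups in every peak, and these r values are the largest among all tested peaks by construction.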

How the data were processed

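ATAC-seq libraries (Omni-ATAC protocol, ChiLin pipeline, BWA and MACS, build mm9 per the labels and the study's methods) had been turned by the authors into a deposited table of RPKM values per merged peak. The merging of peaks, transposase shifting and duplicate handling were not given in the sources used here. RPKM times width gave whole reads for 100.0% of values at a tolerance of 0.001 reads, and library totals came from these steps. TMM factors (30% trimmed on the ratio, 5% on the level) were computed on the recovered reads. Peaks with the equivalent of 10 reads in at least 3 libraries and 15 reads in all were kept (57552, with 2520 removed). limma 3.58.1 (R 4.3.3) was fitted with trend and robust moderation to log2(scaled RPKM + 1), with 4 group means over 12 libraries, Benjamini-Hochberg over all tested peaks, two-sided. The code was tested on simulated data. Interval totals were compared with exact permutation tests (scipy 1.17.1).

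The members and lists were chosen with earlier results of these data known. Peaks given in full were, per interval, the 3 with the highest mean, the smallest adjusted p for the difference of the time courses and the largest fold change in each comparison of 2 groups. Replicate numbers did not pair libraries (correlation of deviations between same-numbered libraries -0.041 to 0.056). Alternatives were other scalings, pseudocounts of 0.1 and 5, other filters, a replicate block, limma-voom, separate fits for each pair of groups, and leaving out libraries one at a time. Promoter sequences are from RefSeq. Figures were drawn with matplotlib 3.10.9.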

Additional observations from a re-analysis of the deposited data

Results flagged for a closer look

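At 12 of the 24 members the change over time differed between HMGN1-OE and wild-type cells by the test of that difference, the change in HMGN1-OE minus that in wild-type cells in the limma fit over all peaks. It was positive at 11 and negative at 1 of them, against 9.23% positive and 7.45% negative over all tested peaks. In the Mpo interval the differences were 1.05 for peak 3, 1.32 for peak 4, 2.24 for peak 5, 0.68 for peak 7 and 1.23 for peak 8 on the log2 scale. In the Prtn3-Elane interval they were 1.05 for peak 1, 0.46 for peak 2, 1.94 for peak 3 and 0.50 for peak 4. In the Ctsg interval they were 0.51 for peak 1, -1.27 for peak 2 and 0.45 for peak 6. Those of Mpo peak 5, Prtn3-Elane peak 3 and Ctsg peak 2 were called under all 4 scalings, but that of Ctsg peak 2 was lost with pseudocount 0.1, with limma-voom and without any one of 3 libraries. Mpo peak 7 lost its call as deposited, with pseudocount 5 and without either of 2 libraries. The difference at Prtn3-Elane peak 4 was lost when any one of 8 of the 12 libraries was left out, and that at Ctsg peak 1 without any one of 5. No formal outlier test was run on groups of 3 libraries.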

How the results depend on the processing

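TMM, median-ratio and reads-in-peaks scaling gave like counts of called members. The RPKM as deposited did not for genotype at 96 h, time in HMGN1-OE and the difference of the time courses. Its counts were closer to the others for genotype at 0 h (1 higher, 8 lower) and time in wild-type cells (12 higher, 6 lower). With that scaling, 21293 of all 57424 tested peaks were higher and 10246 lower over time in wild-type cells. On the RPKM as deposited, the log2 differences of the Mpo interval total were -1.48 (genotype, 0 h), -0.84 (genotype, 96 h), 1.73 (time, HMGN1-OE) and 1.09 (time, wild-type), those of the Prtn3-Elane total -0.078, -0.25, -0.26 and -0.083 in that order, and those of the Ctsg total 0.19, -0.52, -0.38 and 0.33. Scaled to reads in peaks, the Mpo time difference in wild-type cells was 0.96, the Prtn3-Elane differences were -0.22 (genotype, 0 h), 0.34 (time, HMGN1-OE) and -0.21 (time, wild-type), and the Ctsg differences 0.04 (genotype, 0 h) and 0.20 (time, wild-type). With only the highest member peak of each interval, Mpo gave -1.55, 0.07, 3.16 and 1.54, Prtn3-Elane 0.23 (genotype, 96 h) and 0.24 (time, HMGN1-OE), and Ctsg -0.15, 0.32, 0.009 and -0.46. Among the 47 calls of the 14 peaks given in full, 9 did not keep their direction as deposited (8 changed sign and 1 was 0.00): Mpo peak 7 (difference of the time courses, -0.022), Prtn3-Elane peak 1 (genotype at 96 h, -0.11), Prtn3-Elane peak 2 (genotype at 0 h, 0.00, and at 96 h, -0.37, time in HMGN1-OE, -0.37, and difference of the time courses, -0.37), Prtn3-Elane peak 3 (time in HMGN1-OE, -0.085) and Ctsg peak 6 (genotype at 96 h, -0.28, and difference of the time courses, -0.37). Another 9 kept their sign as deposited but were no longer called, and 29 kept both sign and call. The cause of these changes was not tested. The share of higher calls over all peaks was 48.6%, 49.6%, 52.0%, 53.7% and 55.3% (genotype at 0 h and 96 h, time in HMGN1-OE and wild-type, difference) and 84.5%, 4.0%, 25.9%, 67.5% and 1.8% as deposited, and 61.9% (genotype, 0 h) and 40.1% (difference) scaled to reads in peaks. Leaving out each library in turn gave 10 to 12 (genotype, 0 h), 8 to 12 (genotype, 96 h), 16 to 19 (time, HMGN1-OE), 17 to 19 (time, wild-type) and 9 to 12 (difference) called members and kept the sign of all 12 interval differences. With a replicate block 12, 11, 17, 18 and 12 members were called, the same numbers as without it, and no call of a peak given in full was lost. Ctsg peaks 2 and 7 and Mpo peak 11, with 1 or 2 reads in their lowest libraries, are limited by depth.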
